A study of Homo sapiens with 15 samples.

Results

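The 10 genes described here encode enzymes that build chondroitin sulfate: the xylosyltransferases XYLT1 and XYLT2, the galactosyltransferases B4GALT7 and B3GALT6 and the glucuronyltransferase B3GAT3, which make the linker, CSGALNACT2, which starts the chain, and CHSY1, CHSY3, CHPF and CHPF2, which extend it. They were taken by symbol from a table of 59608 genes, and 9 of them were among the 13561 genes with enough reads to test. The set was chosen by function around CHPF, and CHPF itself was selected on its p-value at 50 nM against DMSO, one of the smallest in that contrast. All values of that contrast are therefore given as a description, with no test.

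The cells were MDA-MB-231, an established human line of triple-negative, mesenchymal-like breast cancer, grown flat in dishes (2D culture) and treated for 6 h with ZJ-101, a simplified synthetic analog of the marine macrolide superstolide A, or with 0.1% DMSO as vehicle. ZJ-101 was given at 0.5, 5, 50 or 500 nM, and each of the 5 groups held 3 libraries of poly-A RNA from separate dishes of the same line. No genetic change separated the groups, so the line and its culture are common to all 15 libraries. The study asked how the dose of ZJ-101 changes the transcriptome before the shape of the cells changes.

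Chondroitin sulfate is a long, sulfated sugar chain carried by proteoglycans at the cell surface and in the extracellular matrix. In the Golgi apparatus, xylose is placed on a serine of the core protein, followed by galactose residues and a glucuronic acid, and this linker is shared with heparan sulfate. The first N-acetylgalactosamine commits the chain to chondroitin, after which complexes of CHSY and CHPF family members add glucuronic acid and N-acetylgalactosamine in turn. Sulfotransferases and, for dermatan sulfate, an epimerase then modify the chain.

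The transcripts of CHPF, CHPF2 and CHSY3 fell most, and those of CHSY1 fell less, so the polymerase group contracted unevenly. The chain-starting CSGALNACT2 rose. XYLT2 and B4GALT7 were modestly lower at 500 nM than at 0.5 and 5 nM, B3GALT6 and B3GAT3 did not pass that test, and XYLT1 had no read in any library.

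The upstream sequences of the 4 polymerase genes are shown because these 4 moved by unequal amounts. They are the RefSeq sequences of GRCh38.p14, whose table held all 10 genes, and the window searched was the 250 bases before each start site. Letters searched on both strands were TGACGTCA, the cyclic AMP response element (CRE), ACGTGGC, the Golgi apparatus stress response element (GASE), CACGTG, the E-box, which can overlap the GASE, GAANNTTC, the core pair of a heat shock element, GGGCGG, the GC box, and the endoplasmic reticulum stress response element. The main start of CHPF (window chr2:219543810-219544059, minus strand) had 2 CREs. The window lies within 5′ exons of TMEM198, a gene on the opposite strand, so the CREs alone are printed with 10 bases on either side. The first lies at chr2:219544014-219544041 and the second at chr2:219543969-219543996, and capitals mark the CRE.

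CHPF, first CRE: cctctgctccTGACGTCActcagggcgc
CHPF, second CRE: gggctgcttcTGACGTCAcatgggacgc
B3GAT3, CRE: acgccggatgTGACGTCAccacccggtg

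The third of these sequences lies at chr11:62622195-62622222 on the minus strand, upstream of the linker enzyme B3GAT3. It holds the one other CRE among the 10 genes, and an exon of B3GAT3 overlaps part of the window searched. Of 35116 RefSeq promoter windows of this length, 1.65% held a CRE and 0.0541% held 2 or more. Among the 14684 windows of tested genes these shares were 2.44% and 0.0749%. A second, downstream RefSeq start of CHPF had no CRE in its window.

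The windows of the other 3 polymerase genes are printed whole, CHPF2 at chr7:151232233-151232482 (plus strand), CHSY3 at chr5:129904215-129904464 (plus strand) and CHSY1 at chr15:101252049-101252298 (minus strand). Capitals mark a GASE that overlaps an E-box.

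CHPF2: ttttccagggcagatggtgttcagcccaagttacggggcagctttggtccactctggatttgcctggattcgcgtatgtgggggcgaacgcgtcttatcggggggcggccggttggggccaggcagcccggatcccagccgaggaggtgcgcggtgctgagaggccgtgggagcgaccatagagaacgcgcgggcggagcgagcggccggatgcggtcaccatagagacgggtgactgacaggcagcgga
CHSY3: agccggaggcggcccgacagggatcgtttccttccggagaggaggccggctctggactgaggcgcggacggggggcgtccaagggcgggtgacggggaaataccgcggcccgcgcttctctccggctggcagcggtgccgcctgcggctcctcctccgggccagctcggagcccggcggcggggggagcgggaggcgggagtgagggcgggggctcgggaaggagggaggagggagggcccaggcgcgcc
CHSY1: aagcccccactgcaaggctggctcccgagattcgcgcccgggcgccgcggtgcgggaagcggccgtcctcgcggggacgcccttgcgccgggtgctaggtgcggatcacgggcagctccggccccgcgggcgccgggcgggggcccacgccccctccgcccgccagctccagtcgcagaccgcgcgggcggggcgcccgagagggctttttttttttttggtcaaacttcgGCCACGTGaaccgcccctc

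CHPF2 and CHSY3 shared with CHPF only GC boxes, which 42.6% of all windows and 63% of those of tested genes held. CHSY1 had its GASE from -19 to -13 relative to the start, and B3GALT6 had a GASE from -129 to -123, each overlapping an E-box. The window of B3GALT6 overlaps exon sequence of SDF4, a gene on the opposite strand. A GASE was found in 2.78% of all windows and 3.63% of those of tested genes, and an E-box in 6.34% and 8.08%. No heat shock pair (5.78% of all windows) and no endoplasmic reticulum stress element (0.074%) was found upstream of any of the 10 genes. A match of letters is a description of the sequence, and no binding was measured.

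**Figure D1:**
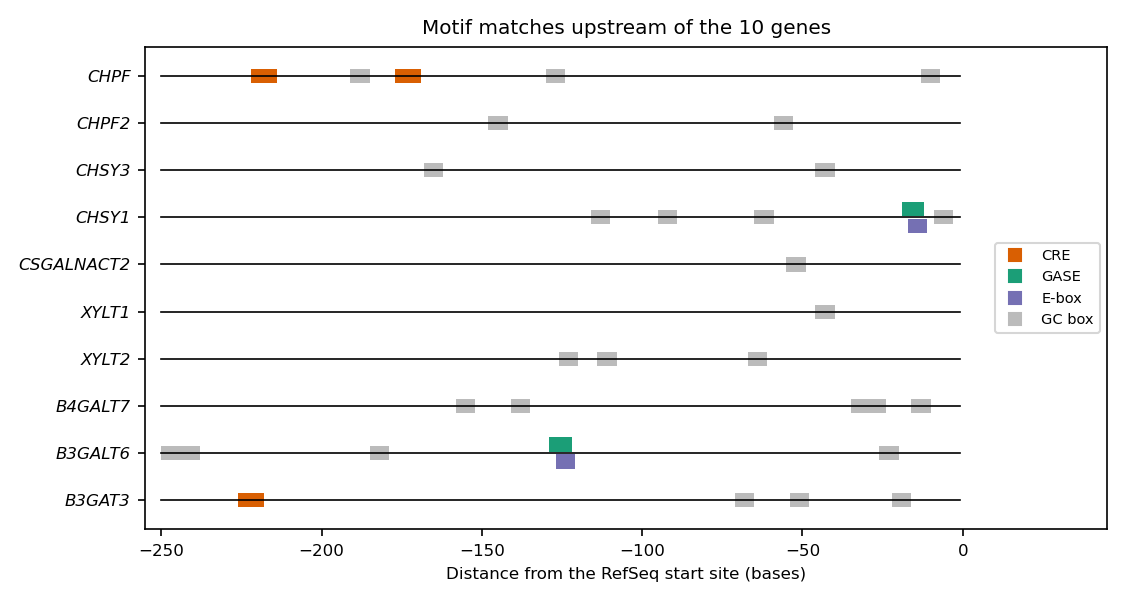
Motif matches in the 250 bases before the RefSeq start of each gene, with the distance from the start site in bases on the x axis and 1 line per gene. CHPF carries 2 CREs and B3GAT3 carries 1, while CHSY1 and B3GALT6 each carry a GASE with an overlapping E-box.

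Each library held between 12415519 and 15284762 reads assigned to genes, of which 0.889% to 2.06% were mitochondrial. The 5 markers listed for the line (VIM, CD44, MSN, AXL and TGFBI) were all expressed. Leukocyte markers were at 0 everywhere for 3 of 5 genes, and the summed level of the whole list did not exceed 3.53 normalized counts in any library. Of the markers expected to be low, ESR1 had a mean of 0.744 normalized counts and PGR 13.7, while CDH1 (147), EPCAM (290) and ERBB2 (1211) were detected. The summed endothelial markers lay between 203 and 327 and the summed fibroblast markers between 167 and 233 normalized counts, mostly from PECAM1 and COL1A1. One library, 0.5 nM replicate 2, stood apart from the others of its group, since its chi-square values per degree of freedom against them were 10.2 and 15.1, where no other pair of replicates exceeded 5.81. Without it 7 enzymes were called at 500 nM against 0.5 and 5 nM, as with it. The labels do not say whether the dishes were treated on separate days, so p-values measure the spread between dishes.

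Transcript levels before treatment differed widely within the pathway. In DMSO, and per kb of exon so that genes of unequal length can be compared, CSGALNACT2 had the highest level at 602 normalized counts per kb. B3GAT3 had a level of 309 normalized counts per kb, B3GALT6 250 and CHPF 238, and the libraries of the last pair overlapped. CHPF2 followed at a level of 194 normalized counts per kb, CHSY1 at 162, XYLT2 at 117, B4GALT7 at 56.7 and CHSY3 at 29.2, with no overlap between neighbors among these. Other genes share 22.15% of the exon bases of CHPF2, where reads may go uncounted, so its level per kb and its rank are uncertain. At 500 nM, CHPF with a level of 70.5 normalized counts per kb and CHPF2 with 75.5 stood below CHSY1 (121) and XYLT2 (94.2), and their libraries overlapped each other. XYLT1 had 0 reads in each of the 15 libraries, which allows up to 3 reads per library, so XYLT2 was the one detected xylosyltransferase.

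CHPF, whose product partners the chondroitin synthases in the polymerizing complex, lies at chr2:219538954-219543809 (GRCh38, minus strand) with 4 exon blocks. Its normalized counts, which are reads divided by the size factor of the library, were 911, 863 and 874 in DMSO and 820, 901 and 903 at 0.5 nM. They were 606, 579 and 654 at 5 nM, 326, 266 and 255 at 50 nM, and 256, 269 and 258 at 500 nM. DMSO and 0.5 nM overlapped, every library at 5 nM was below both, every library at 50 and 500 nM was below those at 5 nM, and the groups at 50 and 500 nM overlapped each other. TMEM198, which shares 3.97% of the exon bases of CHPF on the opposite strand, had at most 15.95 normalized counts in any library.

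The change of CHPF was tested on the 9 libraries at 0.5, 5 and 500 nM, none of which enters the contrast that chose it. CHPF was lower at 500 nM than at the mean of the lower doses by a log2 fold change of -1.48 (SE 0.058, n = 3 against 6, adjusted p = 5.3e-09, limma with Benjamini-Hochberg adjustment over all 13561 genes). Across all tested genes, 0.442% passed with a fall of at least 1 on the log2 scale in this comparison. Fold changes are on the scale of log2(normalized count + 1).

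CHPF2, which encodes a paralog with glucuronyltransferase activity (chr7:151232483-151240979, plus strand), followed the same order of doses. Its normalized counts were 1331, 1280 and 1166 in DMSO, 1174, 1092 and 1285 at 0.5 nM and 960, 906 and 986 at 5 nM. They were 518, 500 and 518 at 50 nM and 454, 532 and 487 at 500 nM. DMSO and 0.5 nM overlapped, 5 nM lay below both, and the groups at 50 and 500 nM overlapped each other below 5 nM. At 500 nM against 0.5 and 5 nM, CHPF2 fell by 1.11 on the log2 scale (SE 0.064, adjusted p = 1.6e-07, limma). Other genes share 22.15% of its exon bases, 10.65% on the same strand, and reads there may have been assigned to neither. SMARCD3, one of these, had a mean of 125 normalized counts in DMSO and 101 at 500 nM.

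CHSY3, a chondroitin synthase (chr5:129904465-130186634, plus strand), was the least abundant detected enzyme. Its normalized counts were 123, 116 and 107 in DMSO, 126, 120 and 85.0 at 0.5 nM and 76.6, 56.2 and 69.0 at 5 nM. They were 49.4, 38.2 and 54.2 at 50 nM and 37.7, 43.5 and 44.2 at 500 nM. Every library at 50 and 500 nM was below every library at 5 nM, and those at 5 nM were below every library in DMSO and at 0.5 nM. The log2 fold change at 500 nM against 0.5 and 5 nM was -1.01 (SE 0.15, adjusted p = 0.00053, limma).

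CHSY1, the other chondroitin synthase measured (chr15:101175727-101252048, minus strand), fell by much less. Its normalized counts were 924, 902 and 928 in DMSO, 956, 779 and 920 at 0.5 nM and 761, 819 and 768 at 5 nM. They were 760, 759 and 731 at 50 nM and 697, 655 and 711 at 500 nM. All libraries at 500 nM were below all others, while 0.5 nM replicate 2 lay within the range of 5 nM. The log2 fold change at 500 nM against 0.5 and 5 nM was -0.27 (SE 0.065, adjusted p = 0.013, limma), and the adjusted p rose to at most 0.091 without 500 nM replicate 2 or with no filter on low values.

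CSGALNACT2, which adds the first N-acetylgalactosamine of the chain, went the other way. Its normalized counts were 2281, 2335 and 2179 in DMSO, 2118, 2122 and 2272 at 0.5 nM and 2364, 2369 and 2356 at 5 nM. They were 2803, 2905 and 2805 at 50 nM and 2569, 2729 and 2695 at 500 nM. Every library at 50 and 500 nM was above every library of the other 3 groups, and the highest group was 50 nM. At 500 nM against 0.5 and 5 nM the log2 fold change was 0.23 (SE 0.040, adjusted p = 0.0015, limma). A second genomic match of at least 50% of its transcript at 95% identity exists, so some of its reads may have been lost or shared, and its level is uncertain.

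**Figure D2:**
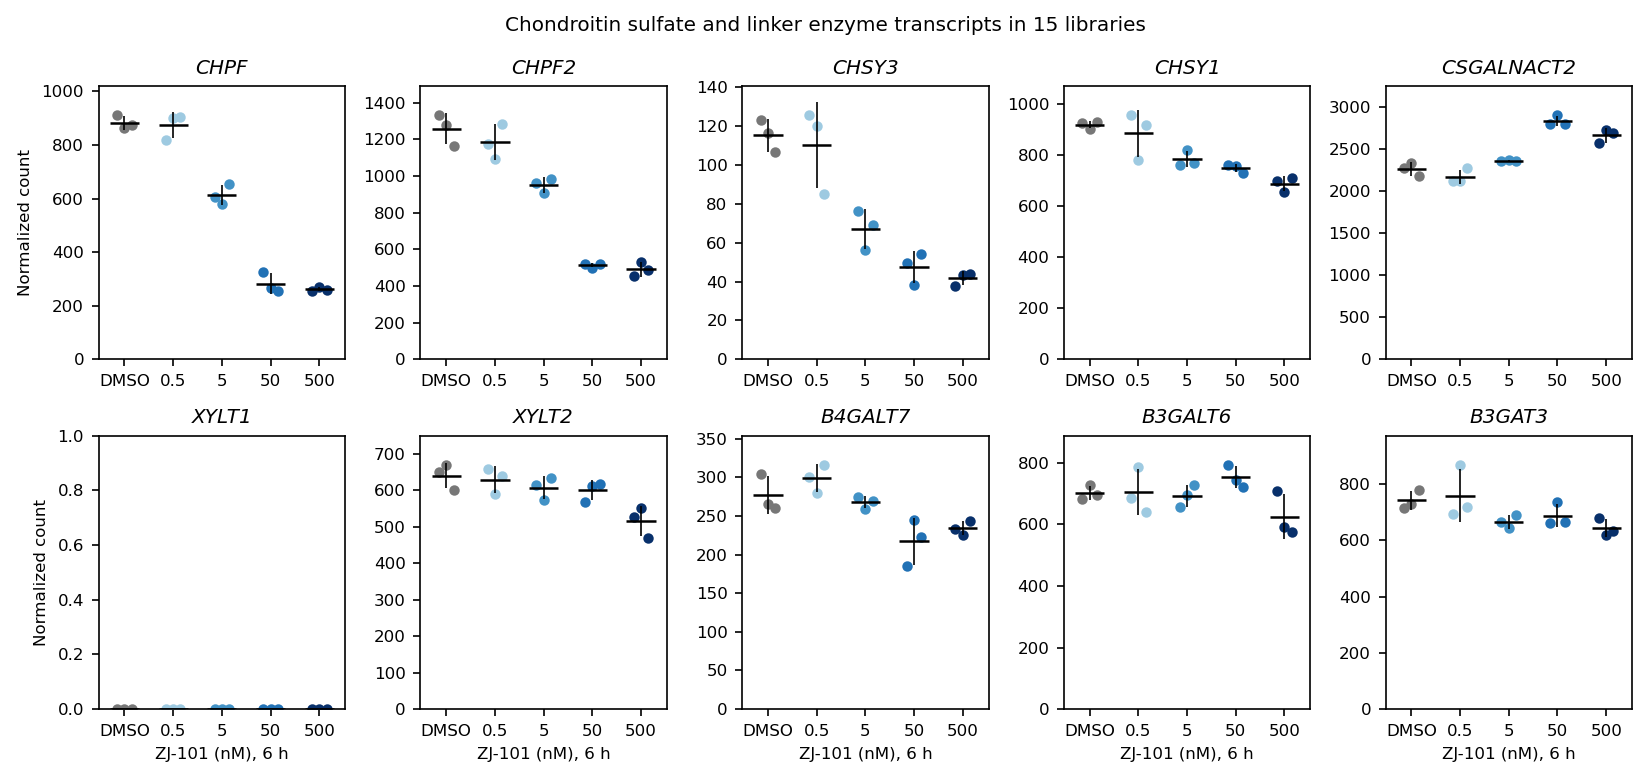
Normalized counts of the 10 enzymes in 15 libraries, with the dose of ZJ-101 in nM on the x axis and the normalized count, from 0, on the y axis. Points are libraries, horizontal bars are means and vertical bars are SD (n = 3), and CHPF goes from a mean of 882 in DMSO to 261 at 500 nM while CSGALNACT2 goes from 2265 to 2664.

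Among the linker enzymes, XYLT2, which transfers the first xylose, had normalized counts of 651, 669 and 601 in DMSO and 526, 551 and 469 at 500 nM. Its levels at 0.5, 5 and 50 nM ranged from 568 to 659 normalized counts and overlapped those of DMSO. At 500 nM against 0.5 and 5 nM it fell by 0.26 on the log2 scale (SE 0.064, adjusted p = 0.015, limma), a call lost without 500 nM replicate 3 or with no filter on low values (adjusted p up to 0.10).

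B4GALT7, which adds the first galactose, had 305, 265 and 260 normalized counts in DMSO, 301, 279 and 316 at 0.5 nM and 274, 259 and 269 at 5 nM. It had 185, 244.5 and 222 normalized counts at 50 nM and 233, 226 and 244 at 500 nM. DMSO overlapped both lower doses, and 50 nM, with a lower mean than 500 nM, overlapped 500 nM, which lay below DMSO, 0.5 nM and 5 nM. The log2 fold change at 500 nM against 0.5 and 5 nM was -0.27 (SE 0.066, adjusted p = 0.015, limma). The call was lost without 500 nM replicate 1 or 2 and against 5 nM alone (adjusted p up to 0.11). B3GALT6, which adds the second galactose, had a mean of 703 ± 24.0 normalized counts in DMSO and 625 ± 73.6 at 500 nM (SD, n = 3), and 500 nM replicate 1, at 709, lay within the groups of DMSO, 0.5 nM and 5 nM and below that of 50 nM. B3GAT3, which completes the linker with glucuronic acid, had 743 ± 33.2 normalized counts in DMSO and 644 ± 32.1 at 500 nM (SD, n = 3). At 500 nM against 0.5 and 5 nM the log2 fold changes were -0.16 for B3GALT6 (95% interval -0.34 to 0.01) and -0.14 for B3GAT3 (95% interval -0.29 to 0.01), with adjusted p = 0.20 and 0.21 (limma).

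In that comparison, 6 of the 9 tested enzymes were called lower, 1 higher and 2 neither, where 15.5% of all tested genes were called in either direction and 7.74% were called lower. The median log2 fold change of the 9 was -0.27, beside 0.00 for all genes. All 4 polymerase genes were called lower, against 1 of the 2 tested galactosyltransferases. The libraries of 6 enzymes lay wholly below, and those of 1 wholly above, with 20.8% of all tested genes not overlapping in either direction.

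Against DMSO, whose libraries are shared by all 4 doses and by the contrast that chose the set, no enzyme passed at 0.5 nM (limma, 0 also at an unadjusted p under 0.05, and 0 by edgeR and DESeq2), where 1.17% of all genes did. At 5 nM, CHPF (log2 fold change -0.53, adjusted p = 0.0011), CHPF2 (-0.40, adjusted p = 0.0037) and CHSY3 (-0.78, adjusted p = 0.019) were lower, which is 3 of 9 where 1.71% of all genes were lower (limma). The DMSO values of CHPF also entered the contrast that chose it, so its result and this count are not independent of that choice. CHSY3 lost its call when DMSO replicate 1, DMSO replicate 2 or the second 5 nM library was left out (adjusted p up to 0.12). CHSY1 at 5 nM had a log2 fold change of -0.23 with adjusted p = 0.078 (limma), and 0.007 without 0.5 nM replicate 2.

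At 50 nM against DMSO, described only, the log2 fold changes were -1.65 for CHPF, -1.29 for CHPF2, -1.28 for CHSY3, -0.29 for CHSY1, -0.35 for B4GALT7 and 0.33 for CSGALNACT2. For XYLT2, B3GALT6 and B3GAT3 they were -0.09, 0.10 and -0.11. Since this contrast chose the set, no call of an enzyme is given there. At 500 nM, CHPF had 29.6% of its DMSO level (log2 fold change -1.75, adjusted p = 1.9e-11), CHPF2 39.0% (-1.36, adjusted p = 1.2e-10), CHSY3 36.8% (-1.44, adjusted p = 5.3e-06) and CHSY1 74.9% (-0.42, adjusted p = 0.00013, limma). XYLT2 was also lower (-0.31, adjusted p = 0.0034) and CSGALNACT2 higher (0.23, adjusted p = 0.00061), so that 5 enzymes were lower and 1 higher where 17.8% of all genes were called and 10.1% were called lower. This count holds CHPF, which was chosen with the same DMSO libraries, and is not independent of that choice. B4GALT7 at 500 nM against DMSO had a log2 fold change of -0.24 with adjusted p = 0.10 (limma). For B3GAT3 the log2 fold change was -0.21 (adjusted p = 0.065, limma) and for B3GALT6 -0.17 (adjusted p = 0.16, limma). All libraries of B3GAT3 at 500 nM lay below those in DMSO. B3GAT3 passed without 0.5 nM replicate 2 and with the 6 libraries of 500 nM and DMSO alone. B3GALT6 passed without 500 nM replicate 1 (adjusted p = 0.027, limma).

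**Figure D3:**
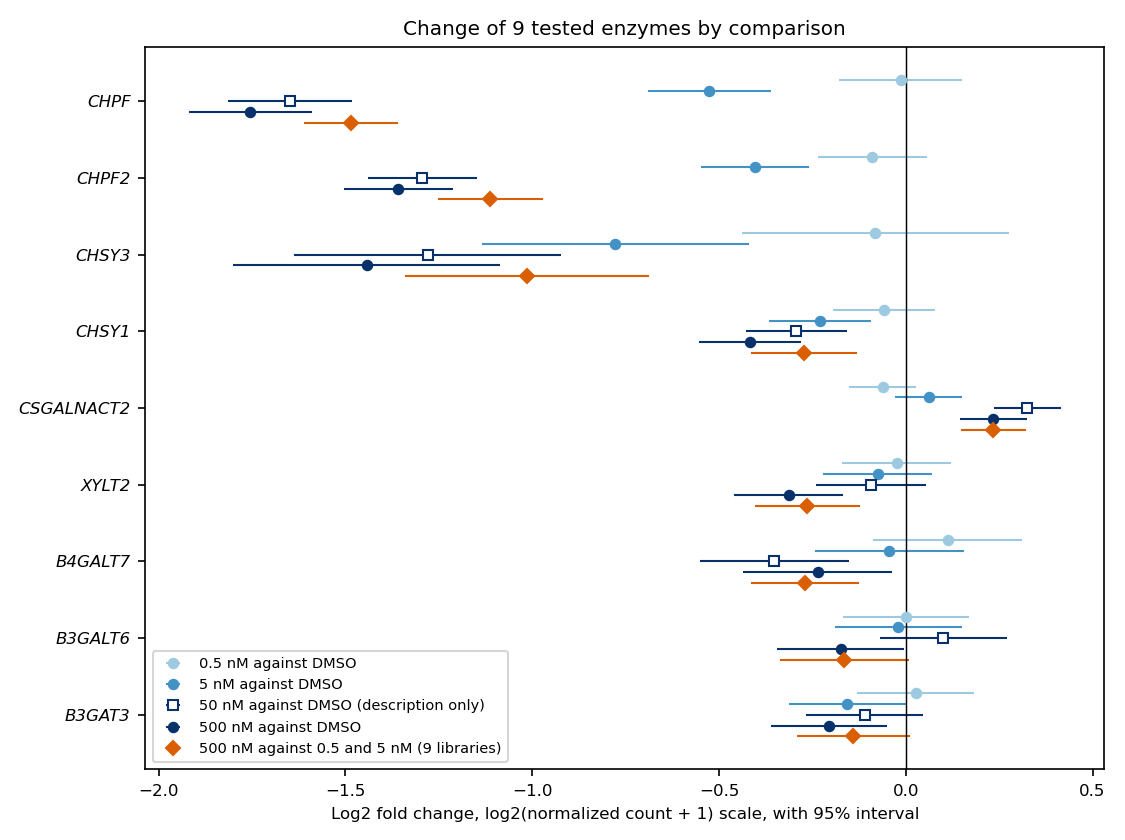
Log2 fold change of the 9 tested enzymes with its 95% interval from limma, for each dose against DMSO and for 500 nM against 0.5 and 5 nM. Open squares are the 50 nM contrast, given as a description, and CHPF, CHPF2 and CHSY3 lie farthest to the left at 50 and 500 nM, while CSGALNACT2 lies to the right of 0 at these doses.

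The step from 0.5 to 5 nM was compared after the values had been seen. CHPF at 5 nM had a log2 fold change of -0.51 against 0.5 nM (SE 0.067, adjusted p = 0.012, limma), and was 1 of 10 genes called among all tested, or 0.0737%. The call was lost without 5 nM replicate 1 or 2 and with no filter on low values (adjusted p up to 0.12). CHPF2 and CHSY3 had log2 fold changes of -0.31 (adjusted p = 0.42) and -0.70 (adjusted p = 0.52, limma). TMEM165, from the list of other pathway genes followed below, was another of the 10 (-0.33, adjusted p = 0.012, limma). Its mean was 2759 normalized counts at 0.5 nM, 2198 at 5 nM and 2593 at 500 nM. Its call was also lost without 5 nM replicate 1 or 2, where 0 of all tested genes were called.

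Related enzymes moved by unequal amounts. In each library CHPF was set against CHPF2 as a difference of log2 values, which averaged -0.53 ± 0.14 over the 6 libraries at 0.5 and 5 nM and -0.91 ± 0.079 over the 3 at 500 nM (SD). The shift of -0.37 had p = 0.024 by an exact two-sided permutation test (84 assignments), which is the smallest p the design allows and stayed 0.024 after adjustment over the 2 pairs tested. CHSY1 minus CHSY3 averaged 3.27 ± 0.41 at the lower doses and 4.01 ± 0.15 at 500 nM (SD), a shift of 0.74 with the same exact permutation p of 0.024. Thus CHPF fell more than CHPF2, and CHSY3 fell more than CHSY1, from the pooled lower doses to 500 nM. The mean of CHPF minus CHPF2 was -0.43 at 0.5 nM and -0.63 at 5 nM. For CHSY1 minus CHSY3 it was 3.01 at 0.5 nM and 3.53 at 5 nM. The SD over the pooled libraries therefore also spans a step between doses, and both shifts are smaller against 5 nM alone. XYLT2 could not be paired with XYLT1, which had no reads.

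The summed level of the 4 polymerase genes, in normalized counts per kb of exon, was 623 ± 19.9 in DMSO, 603 ± 23.1 at 0.5 nM and 467 ± 13.5 at 5 nM. It was 299 ± 12.9 at 50 nM and 278 ± 5.62 at 500 nM (SD, n = 3). CHSY1 made up 26.0% ± 0.90 of this sum in DMSO and 43.7% ± 2.24 at 500 nM, while the share of CHPF went from 38.2% ± 0.63 to 25.4% ± 0.54 (SD, n = 3). The share of CHPF2 was 31.1% in DMSO and 27.2% at 500 nM, and that of CHSY3 was 4.68% and 3.81%. CHSY1 was thus the largest part of the sum at 50 and 500 nM, where it had been the third in DMSO. Since other genes share 22.15% of the exon bases of CHPF2, the part of CHPF2 in the sum may be understated. In bulk RNA, a lower level in every cell and a loss in some of the cells cannot be told apart.

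**Figure D4:**
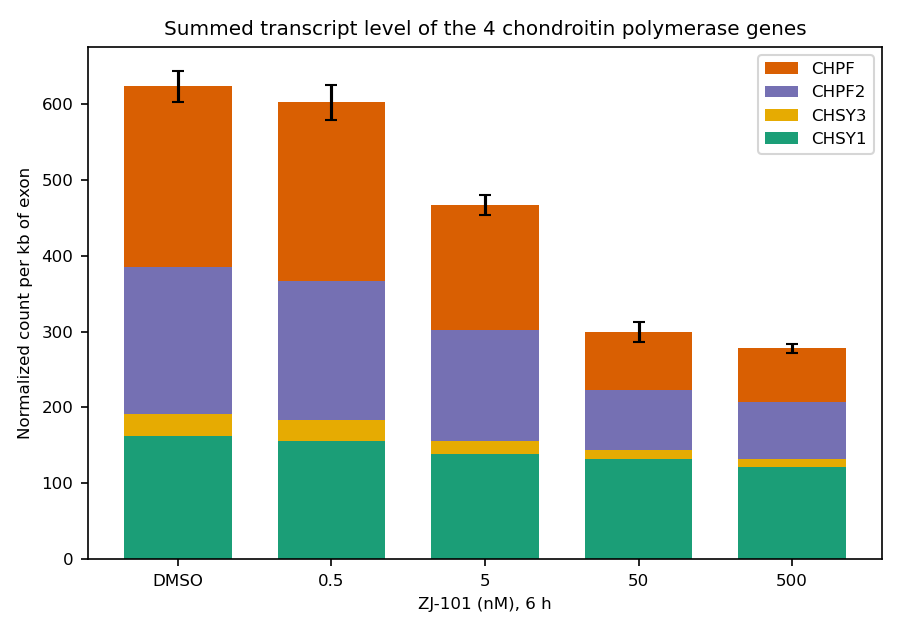
Mean normalized count per kb of exon of CHSY1, CHSY3, CHPF2 and CHPF stacked by group, with the dose of ZJ-101 in nM on the x axis and SD bars for the sum (n = 3). The sum goes from 623 in DMSO to 278 at 500 nM while the CHSY1 layer becomes the largest.

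Over the 15 libraries, the genes whose pattern was nearest to that of CHPF among 13560 others were MATN2, ID1 and CHPF2. These libraries include those of the contrast that chose CHPF, so the order is a description with no test. Likeness was the root mean square distance of the centred log2 values divided by the SD of CHPF, and it was 0.231, 0.262 and 0.270. MATN2, which encodes a matrix protein, had 345 ± 8.40 normalized counts in DMSO, 216 ± 10.7 at 5 nM and 109 ± 10.4 at 500 nM (SD, n = 3), and unlike CHPF it was already at 262 ± 3.20 at 0.5 nM. ID1, which encodes an inhibitor of basic helix-loop-helix factors, had 6910 ± 85.7 in DMSO, 6954 ± 138 at 5 nM and 2464 ± 61.4 at 500 nM, so unlike CHPF it was not lower at 5 nM. CHSY3 was number 13 in this order, B4GALT7 number 485, CHSY1 number 517 and CSGALNACT2 number 12279.

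The rest of the pathway was followed in a list of 51 genes, of which 42 could be tested. At 500 nM against 0.5 and 5 nM, 17 of these were lower and 1 was higher (limma, adjusted p under 0.05), with 7.74% of all genes lower and 7.78% higher. The median log2 fold change of the list was -0.14, beside 0.00 for all genes. PXYLP1, the phosphatase that acts on the linker xylose, fell by 0.61 on the log2 scale, while the kinase FAM20B had a log2 fold change of 0.01 (adjusted p = 0.95). CSGALNACT1, the paralog of CSGALNACT2, had a log2 fold change of -0.05 (adjusted p = 0.71).

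Of the 7 tested sulfotransferases, 2 were called lower, the dermatan enzyme CHST14 by 0.23 and the chondroitin enzyme CHST12 by 0.21 on the log2 scale. CHST3 (-0.22, adjusted p = 0.13) and CHST11 (-0.16, adjusted p = 0.12, limma) did not pass. Both passed as lower at 500 nM against DMSO (adjusted p = 0.0024 and 0.014, limma). CHST7, CHST15 and UST had log2 fold changes between -0.02 and 0.07 at 500 nM against 0.5 and 5 nM. CHST12 lost its call in 8 alternatives, DESeq2 among them, and CHST14 lost it with no filter and without 500 nM replicate 2 (adjusted p up to 0.097). DSE, the epimerase that turns chondroitin into dermatan, fell by 0.43 on the log2 scale (adjusted p = 0.00061, limma). Of the 17 genes of sugar and sulfate donor supply, 4 were lower, among them BPNT2 (-0.29), a phosphatase that clears a byproduct of sulfation, and UGDH (-0.22) and UGP2 (-0.18), which make UDP-glucuronic acid and its precursor. UGP2 lost its call in 6 of 20 alternatives, among them leaving out any one 500 nM library (adjusted p up to 0.11). The UDP-galactose transporter SLC35A2 was the 1 gene of the list called higher (0.22, adjusted p = 0.013, limma), a call lost with no filter and without 500 nM replicate 2 or 3 (adjusted p up to 0.075).

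Of the 10 tested core proteins, 6 were lower. CSPG4, a chondroitin sulfate proteoglycan of the cell surface, had a log2 fold change of -0.80 (SE 0.095, adjusted p = 8.1e-05), THBD of -0.59 (SE 0.054, adjusted p = 8.6e-06) and CSPG5 of -0.53 (SE 0.12, adjusted p = 0.0086, limma), the last lost without 500 nM replicate 1. Of the heparan sulfate enzymes, EXTL3, which starts the chain, fell by 0.51 on the log2 scale, EXT1, a polymerase, by 0.48 and EXTL2 by 0.35. EXT2, the partner of EXT1 in the heparan polymerase, stood at 0.04 on the same scale (limma, adjusted p = 0.68).

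**Figure D5:**
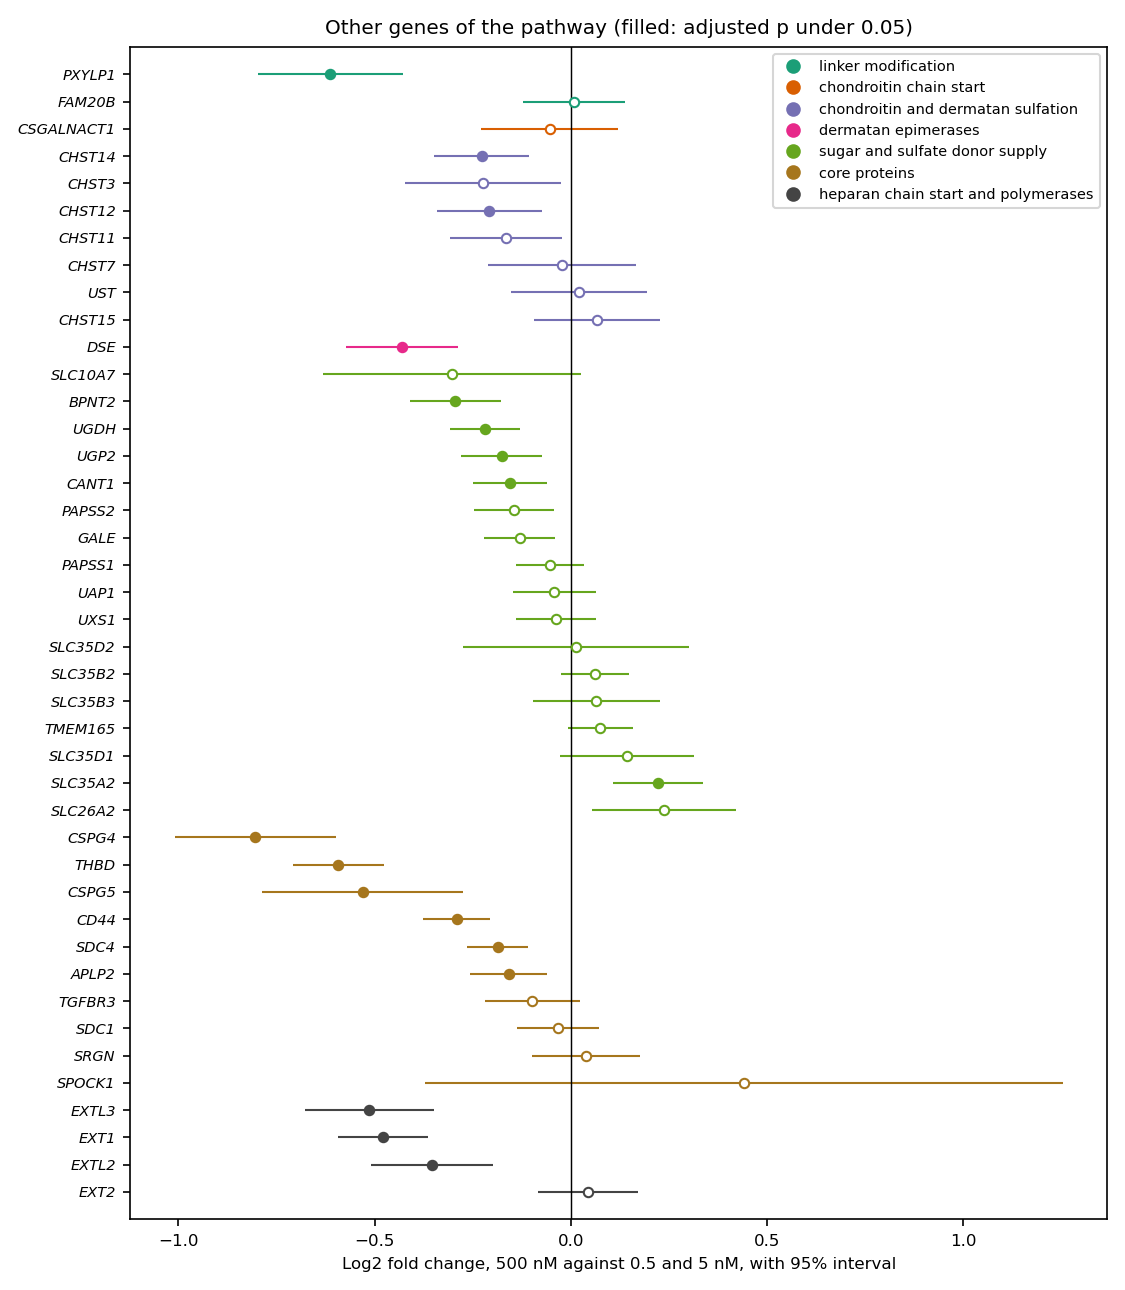
Log2 fold change at 500 nM against 0.5 and 5 nM of the 42 tested genes of the pathway other than the 10 enzymes, colored by role, with 95% intervals from limma. Filled points passed an adjusted p of 0.05, and 17 of them lie left of 0 and 1, SLC35A2, lies to the right.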

How the data were processed

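RNA of 15 libraries (5 groups, 3 each) was analysed. The signal values deposited by the authors are normalized counts. Paired 150 bp reads had been mapped to hg38 (HISAT2), assigned to genes (htseq-count) and scaled by the size factors of DESeq2. The strandedness, tool versions and GENCODE release are not given in the sources used here. The table's 1 line with no gene was dropped. Undoing the scaling gave whole reads (tolerance 0.001) for 100.0% of values. Chi-square values per degree of freedom between replicates were 1.96 to 15.1, so none was a duplicate. The limit of 3 reads given for a gene with 0 reads covers counting error only.

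Genes averaging 10 or more normalized counts were tested with limma 3.58.1 (trend of the variance) on log2(normalized count + 1), with Benjamini-Hochberg adjustment over all genes and a threshold of 0.05. One fit held all 5 groups, each dose against DMSO (10 residual degrees of freedom). Another held 0.5, 5 and 500 nM, with 500 nM against the mean of the others (6 residual degrees of freedom). It leaves out every library of the contrast that chose the set. The test was checked on simulated data.

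The members and lists were chosen with earlier results of these data known. Named genes are the 10 members, up to 3 rises and 3 falls per role of the pathway list, and the 3 genes nearest to CHPF. PXYLP1's and CSGALNACT2's counterparts FAM20B and CSGALNACT1, EXT2, SMARCD3, TMEM198 and TMEM165 were named after their values were seen. Positions and exon overlaps are from GENCODE 44 on GRCh38, and copies were sought with minimap2 2.31-r1302. Alternatives included edgeR 4.0.16 and DESeq2 1.42.0 on the recovered reads, other pseudocounts, filters and scalings, a replicate block, and each library left out.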

Additional observations from a re-analysis of the deposited data

How the results depend on the processing

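None of the enzymes' calls changed direction under any alternative, but several were lost in some of them. These were XYLT2, B4GALT7 and CHSY1 at 500 nM against 0.5 and 5 nM, CHSY3 at 5 nM against DMSO and CHPF at 5 nM against 0.5 nM. The number of enzymes called at 500 nM against 0.5 and 5 nM was 7. It was 1 in the later contrast of 5 nM with 0.5 nM. That contrast comes from the same fit, shares the 0.5 and 5 nM libraries, and asks another question. When 1 library was left out, 0 enzymes were called at 0.5 nM, 2 to 4 at 5 nM, 6 to 7 at 500 nM and 5 to 7 at 500 nM against 0.5 and 5 nM, and 12 to 24 of the other pathway genes in that comparison. The shift of CHPF against CHPF2 lay between -0.41 and -0.32 and that of CHSY1 against CHSY3 between 0.62 and 0.86. Without any one 500 nM library their exact permutation p was 0.071, the smallest 2 against 6 libraries allow. Replicate numbers did not pair the libraries: of 30 pairs with the same number, 0 had deviations that correlated above 0.1 (-0.0855 to 0.0961). With the number as a block, 3 enzymes were called at 5 nM, 6 at 500 nM and 7 at 500 nM against 0.5 and 5 nM. Depth limits XYLT1, with 0 reads, and CHSY3, the lowest detected enzyme. The number of all genes called also moved. Against DMSO it was 159 at 0.5 nM (19 to 391 over the alternatives, lowest without DMSO replicate 1 and highest without 0.5 nM replicate 3), 295 at 5 nM (113 without DMSO replicate 1, 846 with the 6 libraries of that dose and DMSO alone) and 814 at 50 nM (1276 without 0.5 nM replicate 2). At 500 nM against 0.5 and 5 nM it was 2104, with 1380 under no filter, 1268 without 500 nM replicate 2, 1322 without 500 nM replicate 3 and 2772 without 0.5 nM replicate 2. Between 0.5 and 5 nM it was 10, with 21 by DESeq2 and 0 without 5 nM replicate 1 or 2.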
